A study of Rattus norvegicus with 10 samples.

Results

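The genes described here are 34 named genes of autophagy and of the lysosome, chosen by name with earlier results of these data known, and each was followed through its brightest probe set, the one with the highest mean over all 10 arrays. Of the 34, 31 had such a probe set, out of 14218 genes followed on the arrays in all. The probe set of Map1lc3b is also annotated to Map1lc3b2, which RefSeq lists as a pseudogene, and was counted as Map1lc3b. Gabarapl2 and Nbr1 were represented only by probe sets shared with a second gene, so that their values are given without being counted, and Npc1 was not analysed here. Of the 31 genes, 20 stand on the autophagosome side and 10 on the lysosomal side, and Tfeb stands on neither.

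The samples were livers of female Harlan Sprague-Dawley rats, 5 per group, whose age is not given in the labels. Both groups were gavaged with corn oil on 5 days per week for 13 weeks, per the labels. The series' design text instead places the dosing in a toxicology study that ran for years, so that the exposure time rests on the labels alone. The I3C group also received 300 mg per kg of indole-3-carbinol, a compound released from cruciferous vegetables, and the vehicle group received corn oil alone. The comparison asks which of these genes differ in the dosed liver, and whether the autophagosome side and the lysosomal side differ alike.

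Autophagy carries cytoplasm and organelles to the lysosome inside a double membrane, the autophagosome. A kinase complex starts the process, a lipid kinase complex marks the site where the membrane forms, and a chain of enzymes couples small proteins of the ATG8 family, LC3 and GABARAP, to the growing membrane. Cargo receptors bind the ATG8 proteins on that membrane, and lysosomal cathepsins and glycosidases then break the contents down. In liver this route recycles amino acids during fasting and clears damaged mitochondria and protein aggregates.

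Expression is given on the log2 scale of the deposited values, and a difference is always I3C minus vehicle. "Rose" and "fell" are used for genes whose limma p-value, adjusted by Benjamini-Hochberg over 31042 probe sets, was under 0.05. Cyp1a1, a standard target of the aryl hydrocarbon receptor, separated the labelled groups, at 5.13 to 6.08 on the vehicle arrays and 13.86 to 13.97 on the I3C arrays. Of 10 listed hepatocyte markers 9 were measured, with a mean level of 14.05 to 14.10 on the vehicle arrays and 14.02 to 14.13 on the I3C arrays. As a measure of RNA quality, the GAPDH controls give the 3' signal minus the 5' signal, which was 0.32 to 0.65 on the vehicle arrays and 0.16 to 0.29 on the I3C arrays, without overlap (exact permutation p = 0.00794, two-sided, the smallest that 5 against 5 arrays can give). The same measure of the beta-actin controls was 1.449 to 1.737 on the vehicle arrays and 1.175 to 1.532 on the I3C arrays. Those ranges overlapped (exact permutation p = 0.0476, two-sided). Values with the GAPDH difference as a covariate are gathered after the results of the 31 genes, and given with each gene list. On the second principal component vehicle 5 stood alone at -47.8, with the 4 remaining vehicle arrays above 0. Since animals are not numbered in the labels, p-values speak of the spread among these arrays alone, and 5 per group limit the precision.

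In the dosed livers 4 of the 31 genes rose and 2 fell, which is 19.4% of them, where 6.44% of all 14218 genes were called, 3.33% as risen and 3.11% as fallen. With the GAPDH covariate 1 rose and 0 fell (limma, with 4 higher and 4 lower by unadjusted p under 0.05). By unadjusted limma p under 0.05, 1368 of all 14218 genes were higher and 1451 lower, and 1053 and 1406 with the covariate. The 4 that rose were Map1lc3b and Gabarapl1 of the ATG8 family, the cargo receptor Sqstm1, and Ctsl, which encodes cathepsin L. The 2 that fell, Ctsa and Ctsh, encode lysosomal proteases. The rises ran from 1.37-fold to 1.58-fold, and the falls were 1.18-fold and 1.20-fold. The other 25 genes did not pass, among them all 13 measured genes of initiation, membrane nucleation and ATG8 conjugation. In 10 of the 31 genes the 5 I3C arrays lay all above (6 genes) or all below (4 genes) the 5 vehicle arrays, against 8.68% of all genes. The median difference was 0.018 over the 31 genes and -0.0039 over all genes.

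**Figure D1:**
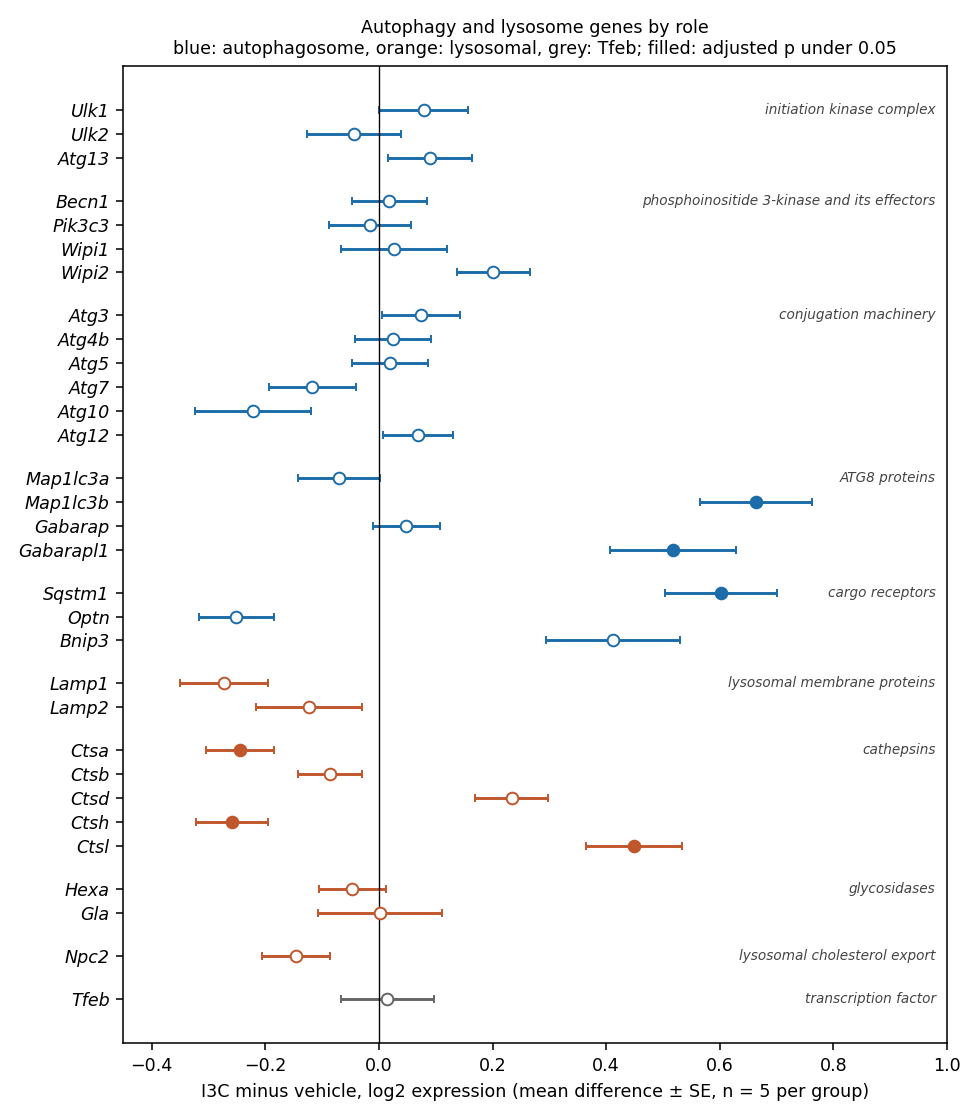
Each point is the I3C minus vehicle difference of a gene in log2 units (horizontal axis) with its SE from limma, n = 5 per group, and genes are grouped by role down the vertical axis; filled points have an adjusted p under 0.05. The 4 genes that rose lie between 0.45 and 0.66, the 2 that fell lie near -0.25, and most genes of initiation, nucleation and conjugation lie close to 0.

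The kinase complex that starts autophagy differed little. Ulk1 and Ulk2, the protein kinases of the complex, differed by 0.079 ± 0.078 (SE, n = 5 per group) and -0.045 ± 0.083, and Atg13, which binds them, by 0.090 ± 0.074. The 95% intervals of all 3 lay within -0.22 and 0.25, so that differences of that size are not excluded. None of the 3 passed (limma adjusted p from 0.654 to 0.882, and 0 at an unadjusted p under 0.05).

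The lipid kinase that marks the forming membrane gave the same kind of values, apart from a reader of its product. Pik3c3, the catalytic subunit, differed by -0.016 ± 0.072, and Becn1, its regulatory partner, by 0.018 ± 0.066. Wipi1 and Wipi2 bind the lipid that the kinase makes. Wipi1 differed by 0.026 ± 0.094, and its dimmer probe set by -0.077 ± 0.104. Wipi2 lay at 8.21, 8.30, 8.27, 8.13 and 8.28 on the vehicle arrays and at 8.40, 8.37, 8.38, 8.58 and 8.46 on the I3C arrays. All 5 I3C arrays were above every vehicle array, as in 4.61% of all genes, but the difference of 0.20 ± 0.06 did not pass (limma adjusted p = 0.11).

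The enzymes that couple ATG8 proteins to the membrane did not pass either. Atg7 activates the ATG8 proteins and Atg12. Atg3 passes the ATG8 proteins on and Atg10 passes on Atg12, which joins Atg5 in a conjugate that promotes the last step, and Atg4b trims ATG8 proteins before use. Their differences ran from -0.22 ± 0.10 in Atg10 to 0.074 ± 0.068 in Atg3, with limma adjusted p from 0.312 to 0.944, and 0 of the 6 reached an unadjusted p under 0.05. Atg4b, Atg5, Atg7 and Atg12 have further probe sets, of which 0 passed limma. The dimmer probe set of Atg4b differed by -0.15 ± 0.07, against 0.025 ± 0.066 for the brighter. The dimmest of Atg12 differed by 0.28 ± 0.12 and the second of Atg5 by 0.16 ± 0.07 (limma adjusted p = 0.259 and 0.276).

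The ATG8 family divided into members that rose and members that did not pass. Map1lc3b encodes the LC3 protein that is commonly used to mark autophagosomes. It lay at 10.36, 10.70, 10.30, 10.22 and 10.15 on the vehicle arrays and at 10.99, 10.93, 10.91, 11.17 and 11.05 on the I3C arrays. All 5 I3C arrays exceeded the highest vehicle array, which was vehicle 2. Map1lc3b rose by 0.66 ± 0.10 (SE, n = 5 per group, limma adjusted p = 0.00182), or 1.58-fold, the largest difference among the 31 genes.

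Gabarapl1, a GABARAP-like member of the family, lay at 10.69, 11.15, 10.56, 10.79 and 10.56 on the vehicle arrays and at 11.42, 11.31, 11.07, 11.31 and 11.22 on the I3C arrays. The groups overlapped through vehicle 2, which lay above I3C 3, while the other I3C arrays were above every vehicle array. Gabarapl1 rose by 0.52 ± 0.11 (limma adjusted p = 0.0175). Its second, dimmer probe set rose by 0.54 ± 0.12 (limma adjusted p = 0.0198).

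Map1lc3a, the other LC3 gene on the array, had a vehicle mean of 8.80 ± 0.13 (SD, n = 5) and an I3C mean of 8.73 ± 0.07 (SD, n = 5), a difference of -0.071 with a 95% interval from -0.23 to 0.086. Gabarap, which names the second branch of the family, was 11.99 ± 0.07 (SD, n = 5) and 12.03 ± 0.05 (SD, n = 5), a difference of 0.048 with a 95% interval from -0.079 to 0.18. The probe set shared by Gabarapl2 and the pseudogene Gabarapl3 lay at 11.86 to 12.00 on the vehicle arrays and 12.02 to 12.09 on the I3C arrays. These did not overlap, and the difference of 0.12 ± 0.06 did not pass (limma adjusted p = 0.296).

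Within the family the changes were unequal. A set of tests added after the values were seen compared the log2 ratio of each pair of measured ATG8 genes and of each pair of cathepsins between the groups, 16 pairs in all, by exact permutation of the arrays (two-sided). The log2 ratio differed by -0.73 for Map1lc3a over Map1lc3b, by -0.59 for Map1lc3a over Gabarapl1 and by 0.62 for Map1lc3b over Gabarap, each without overlap between the groups (exact permutation p = 0.00794, adjusted over the 16 pairs 0.0127). That of Gabarap over Gabarapl1 differed by -0.47, with overlap (exact permutation p = 0.0238, adjusted 0.0346), a call of Gabarap minus Gabarapl1 that ended when vehicle 1, vehicle 3, vehicle 4, vehicle 5, I3C 1, I3C 2 or I3C 4 was left out (adjusted p from 0.0586 to 0.0693). With the GAPDH covariate described further on, Map1lc3a against Map1lc3b was -0.37, Map1lc3b against Gabarap 0.20 and Gabarap against Gabarapl1 -0.11. The risen pair, Map1lc3b and Gabarapl1, differed in their change by 0.15 (exact permutation p = 0.103, adjusted 0.118).

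**Figure D2:**
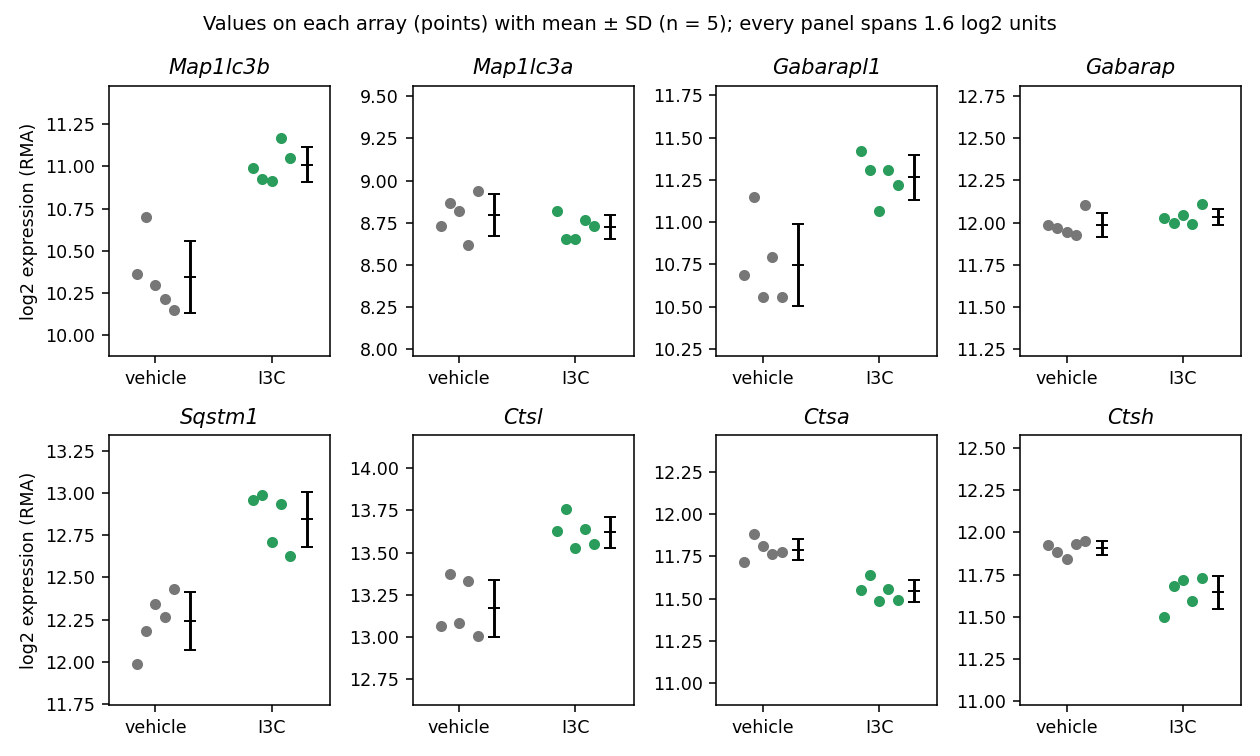
Each panel shows the log2 expression of a gene on the 5 vehicle arrays (grey) and the 5 I3C arrays (green), with the mean ± SD beside the points; every panel spans the same height. Map1lc3b, Sqstm1 and Ctsl lie higher on all I3C arrays, Ctsa and Ctsh lie lower on all of them, vehicle 2 of Gabarapl1 lies among the I3C values, and Map1lc3a and Gabarap overlap.

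Among the cargo receptors, Sqstm1 rose and the rest did not pass. Sqstm1 binds ubiquitinated cargo and ATG8 proteins, and it also binds Keap1, the protein that holds the antioxidant transcription factor encoded by Nfe2l2 in check, while being itself a known target of that factor. It lay at 11.98, 12.18, 12.34, 12.27 and 12.43 on the vehicle arrays and at 12.96, 12.99, 12.71, 12.93 and 12.63 on the I3C arrays. All 5 I3C arrays were above every vehicle array. Sqstm1 rose by 0.60 ± 0.10 (limma adjusted p = 0.00327), or 1.52-fold. Its second brightest probe set rose by 0.68 ± 0.10 (limma adjusted p = 0.00131), and its 2 dimmest, at about 6, differed by 0.20 and 0.14 and did not pass.

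Of the partners of Sqstm1 in that loop, Nfe2l2 rose by 1.05 ± 0.10 (limma adjusted p = 6.49e-05), while Keap1 differed by 0.062 ± 0.089 (limma adjusted p = 0.835). Nqo1, a quinone reductase and standard target of the same factor, rose by 2.85 ± 0.09. Which factor lay behind that rise was not tested.

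Bnip3, a receptor of the mitochondrial outer membrane, lay at 10.26, 10.36, 10.02, 10.11 and 9.65 on the vehicle arrays and at 10.68, 10.46, 10.44, 10.36 and 10.52 on the I3C arrays. The lowest I3C array, I3C 4, stood just above the highest vehicle array, vehicle 2, and vehicle 5 was the lowest of all. The difference of 0.41 ± 0.12 did not pass (limma adjusted p = 0.071, and 0.0391 without vehicle 2). Optn, a receptor for damaged mitochondria and bacteria, went the other way. It lay at 9.56, 9.79, 9.68, 9.71 and 9.68 on the vehicle arrays and at 9.47, 9.48, 9.52, 9.30 and 9.39 on the I3C arrays. Every I3C array was below every vehicle array, as in 4.07% of all genes, and the difference of -0.25 ± 0.07 missed the threshold narrowly (limma adjusted p = 0.0502). It passed without vehicle 1 or vehicle 5 (limma adjusted p = 0.047 and 0.0481), and a dimmer probe set differed by -0.036 ± 0.089. The shared probe set of Nbr1, a receptor related to Sqstm1, differed by -0.0030 ± 0.0748.

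The promoters of the 4 risen genes are shown because these are the genes that were called as risen. Each sequence runs from 250 bases before to 50 bases after the gene start in RefSeq on assembly GRCr8, and capitals mark matches to the core of the antioxidant response element, TGACNNNGC, on either strand.
Map1lc3b, chr19:66574345-66574644, plus strand: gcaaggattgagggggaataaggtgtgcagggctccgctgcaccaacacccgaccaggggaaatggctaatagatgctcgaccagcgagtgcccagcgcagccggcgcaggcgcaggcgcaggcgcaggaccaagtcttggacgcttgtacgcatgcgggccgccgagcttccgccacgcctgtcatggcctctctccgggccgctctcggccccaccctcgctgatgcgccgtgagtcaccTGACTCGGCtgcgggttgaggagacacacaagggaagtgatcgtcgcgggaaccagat
Gabarapl1, chr4:164666082-164666381, plus strand: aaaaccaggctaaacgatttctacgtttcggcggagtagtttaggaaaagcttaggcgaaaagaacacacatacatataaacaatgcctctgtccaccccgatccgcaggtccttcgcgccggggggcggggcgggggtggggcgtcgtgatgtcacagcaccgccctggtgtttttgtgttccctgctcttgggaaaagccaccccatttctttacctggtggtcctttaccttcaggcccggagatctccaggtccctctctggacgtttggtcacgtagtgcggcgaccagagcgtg
Sqstm1, chr10:35037701-35038000, minus strand: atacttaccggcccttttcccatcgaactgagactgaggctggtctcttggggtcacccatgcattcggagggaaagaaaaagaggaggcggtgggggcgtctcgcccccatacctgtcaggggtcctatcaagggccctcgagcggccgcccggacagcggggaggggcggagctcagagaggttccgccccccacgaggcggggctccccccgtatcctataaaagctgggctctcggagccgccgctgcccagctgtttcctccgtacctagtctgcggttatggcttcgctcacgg
Ctsl, chr17:769854-770153, plus strand: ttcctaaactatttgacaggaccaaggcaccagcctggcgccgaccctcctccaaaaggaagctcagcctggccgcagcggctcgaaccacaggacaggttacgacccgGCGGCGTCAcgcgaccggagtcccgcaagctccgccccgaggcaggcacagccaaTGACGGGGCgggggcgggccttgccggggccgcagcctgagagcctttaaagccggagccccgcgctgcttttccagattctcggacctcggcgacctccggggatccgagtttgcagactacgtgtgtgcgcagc
The Map1lc3b window holds TGACTCGGC, which begins 8 bases before the gene start. The Ctsl window holds TGACGGGGC, which begins 86 bases before the start, and a match on the other strand, written here as GCGGCGTCA, which begins 141 bases before it. The windows of Sqstm1 and Gabarapl1 hold no match. Of the 31 genes, 27 have such a promoter window, and 9 of these genes, or 33.3%, hold the motif, against 12.1% of all 33469 promoters. The 9 are Map1lc3b and Ctsl, which rose, Ctsa, which fell, and Ulk2, Atg4b, Atg10, Gabarap, Ctsd and Npc2, which did not pass. A gene was counted if any of its promoters held the motif, while the share of all promoters counts each promoter once. The palindrome CACGTG is the E-box within the element bound by the transcription factor encoded by Tfeb. Counted in the same way, it was in 5 of the 27 genes, or 18.5%, against 6.42% of all promoters. Those 5 are Atg3, Atg5, Bnip3, Lamp1 and Ctsd, of which none rose or fell. The core of the element bound by the stress factor encoded by Atf4, TGATGNAA, was in 0 of the 27 and in 3.98% of all promoters. The 4 windows shown hold no match to the latter 2 motifs. A match is a run of letters and does not show that a factor binds there.

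On the lysosomal side, the membrane proteins were lower without passing. Lamp1, an abundant glycoprotein of the lysosomal membrane, lay at 11.34, 11.44, 11.22, 11.56 and 11.21 on the vehicle arrays and at 11.07, 11.21, 11.06, 11.02 and 11.04 on the I3C arrays. The lowest vehicle array and the highest I3C array, vehicle 5 and I3C 2, were level, so that the groups overlapped. The difference of -0.27 ± 0.08 did not pass (limma adjusted p = 0.0709, and 0.0305 without vehicle 5). Its 2 dimmer probe sets, at about 6 and 4, differed by 0.16 and 0.17, in the opposite direction, and did not pass. Lamp2, the related membrane protein that also serves chaperone-mediated autophagy, differed by -0.12 ± 0.09, and its second probe set by -0.27 ± 0.12, again without passing (limma adjusted p = 0.614 and 0.293).

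The cathepsins moved in both directions. Ctsl, a cysteine protease of the lysosome, lay at 13.06, 13.37, 13.08, 13.33 and 13.01 on the vehicle arrays and at 13.63, 13.76, 13.53, 13.64 and 13.55 on the I3C arrays. All 5 I3C arrays were higher than every vehicle array, and Ctsl rose by 0.45 ± 0.09 (limma adjusted p = 0.00854), or 1.37-fold. Its second probe set rose by 0.69 ± 0.15 (limma adjusted p = 0.0182).

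Ctsa, a carboxypeptidase that also protects other lysosomal enzymes, lay at 11.72, 11.88, 11.81, 11.77 and 11.78 on the vehicle arrays and at 11.55, 11.64, 11.49, 11.56 and 11.49 on the I3C arrays. It fell by 0.24 ± 0.06 (limma adjusted p = 0.0333), with every I3C array below every vehicle array. Ctsh, an aminopeptidase, lay at 11.92, 11.89, 11.84, 11.93 and 11.95 on the vehicle arrays and at 11.50, 11.68, 11.72, 11.60 and 11.73 on the I3C arrays. It fell by 0.26 ± 0.06 (limma adjusted p = 0.0336), again without overlap. Both calls were sensitive to single arrays. That of Ctsa ended without vehicle 2, vehicle 3, vehicle 4, I3C 1, I3C 3, I3C 4 or I3C 5, and that of Ctsh without vehicle 1, vehicle 2, vehicle 3, vehicle 4, I3C 1, I3C 2 or I3C 4, with limma adjusted p up to 0.0909 and 0.083. The sizes barely moved, from -0.27 to -0.22 for Ctsa and from -0.28 to -0.22 for Ctsh.

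Ctsd, the main aspartic protease of the lysosome, lay at 11.02, 11.06, 11.09, 10.95 and 11.22 on the vehicle arrays and at 11.24, 11.26, 11.33, 11.32 and 11.36 on the I3C arrays. The groups did not overlap, though vehicle 5 lay just under I3C 1, and the difference of 0.23 ± 0.06 did not pass (limma adjusted p = 0.0603, and 0.0142 without vehicle 5). Ctsb, a further cysteine protease, differed by -0.086 with a 95% interval from -0.21 to 0.037. In the ratio tests, 7 of the 10 cathepsin pairs changed unequally after adjustment over the 16 pairs. These pairs reuse the same few genes, and the share over other gene pairs on the arrays was not taken. The log2 ratio of Ctsa differed by -0.69 over Ctsl, by -0.48 over Ctsd and by -0.16 over Ctsb (each exact permutation p = 0.00794, adjusted 0.0127). With the GAPDH covariate these differences were -0.57, -0.60 and -0.14. Ctsa and Ctsh differed in their change by 0.015 (exact permutation p = 0.881), and Ctsd and Ctsl by -0.22 (exact permutation p = 0.111, adjusted 0.119).

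The glycosidases Hexa and Gla, which trim glycolipids, differed by -0.047 ± 0.059 and 0.0020 ± 0.1091. Npc2, the soluble protein that hands cholesterol on for export from the lysosome, lay at 11.61 to 11.74 on the vehicle arrays and at 11.44 to 11.61 on the I3C arrays. Vehicle 5 and the highest I3C arrays were level to 2 decimals, the groups just failed to overlap, and the difference of -0.15 ± 0.06 did not pass (limma adjusted p = 0.24). Tfeb, the transcription factor that drives lysosomal genes, differed by 0.015 ± 0.081, with a 95% interval from -0.16 to 0.19. The arrays measure its transcript, and its known control through phosphorylation and entry into the nucleus is not seen here.

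Set side by side, 3 of the 20 autophagosome genes rose and 0 fell, or 15% (limma, with 5 higher and 1 lower by unadjusted p under 0.05). Of the 10 lysosomal genes 1 rose and 2 fell, or 30% (2 higher and 4 lower by unadjusted p). Over all 14218 genes 3.33% rose and 3.11% fell (1368 higher and 1451 lower by unadjusted p). The median difference was 0.037 on the autophagosome side and -0.10 on the lysosomal side, and 14 of 20 genes were above 0 on the first and 3 of 10 on the second. On each array the median deviation of a side from its mean over the 10 arrays was also taken. On the autophagosome side it ran from -0.069 to 0.051 on the vehicle arrays and from -0.0032 to 0.047 on the I3C arrays, and vehicle 2 was the highest of all 10. On the lysosomal side it ran from 0.014 to 0.12 on the vehicle arrays and from -0.12 to -0.0038 on the I3C arrays, so that the groups did not overlap. These medians describe genes that were chosen with earlier results known, and carry no test.

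Macrophages are rich in lysosomes, and the median deviation of their markers, like that of the lysosomal genes, was lower on the I3C arrays. Within the I3C group the lowest array was not the same. It was I3C 5 for the macrophage markers (-0.47) and I3C 1 for the lysosomal genes (-0.12). Within the vehicle group the highest array was the same, vehicle 2, at 0.32 for the macrophage markers and 0.12 for the lysosomal genes. Of 15 listed macrophage markers 13 were measured. Of these 3 fell and 0 rose, or 23.1% called, where 6.44% of all genes were called and 3.11% fell. By unadjusted limma p under 0.05, 10 of the 13 were lower and 1 higher, against 1451 lower and 1368 higher of all 14218 genes. Differences were below 0 in 12 of 13, with a median of -0.34, and in 7305 of all genes. Cd5l, a protein secreted by macrophages, fell by 0.52 ± 0.12, Aif1, a calcium-binding protein of these cells, by 0.38 ± 0.09, and C1qa, a complement component named after its value was seen, by 0.37 ± 0.08. The calls of Cd5l and Aif1 ended without vehicle 1, vehicle 2, vehicle 4, I3C 1, I3C 4 or I3C 5 (limma adjusted p up to 0.0677 and 0.0858), and that of C1qa without vehicle 1 or I3C 5 (up to 0.0525). Under the GAPDH covariate 0 of the 13 were called (limma, with 1 higher and 7 lower by unadjusted p under 0.05). Cd5l then lay at -0.69, Aif1 at -0.47 and C1qa at -0.33 (limma adjusted p = 0.132, 0.182 and 0.287), and the median of the 13 at -0.37. Clec4f, the lectin of Kupffer cells, lay at 10.69 to 11.47 over the 10 arrays, and the lowest value of any of the 13, in Adgre1, was 7.17. The mean level of the 13 was 9.30 to 9.64 on the vehicle arrays and 8.94 to 9.30 on the I3C arrays. Markers of some other cells of the liver were also mostly lower. Of sinusoidal endothelial markers 7 of 7 were below 0, with a median of -0.14 (-0.24 with the GAPDH covariate). Of stellate cell markers 8 of 10 were below 0, with a median of -0.13 (-0.029 with the covariate). Differences within the stellate list ran from -0.51 to 1.33. Lymphocyte markers were below 0 in 5 of 11, cholangiocyte markers in 2 of 6 and neutrophil markers in 3 of 5. Their medians were 0.0030, 0.068 and -0.033. Hepatocyte markers were below 0 in 6 of 9, with a median of -0.0099. The part of RNA from macrophages or these other cells in the falls of Ctsa and Ctsh, or in the lower values of Lamp1 and Npc2, was not tested. In whole liver fewer cells of a type and less RNA per cell cannot be told apart.

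**Figure D3:**
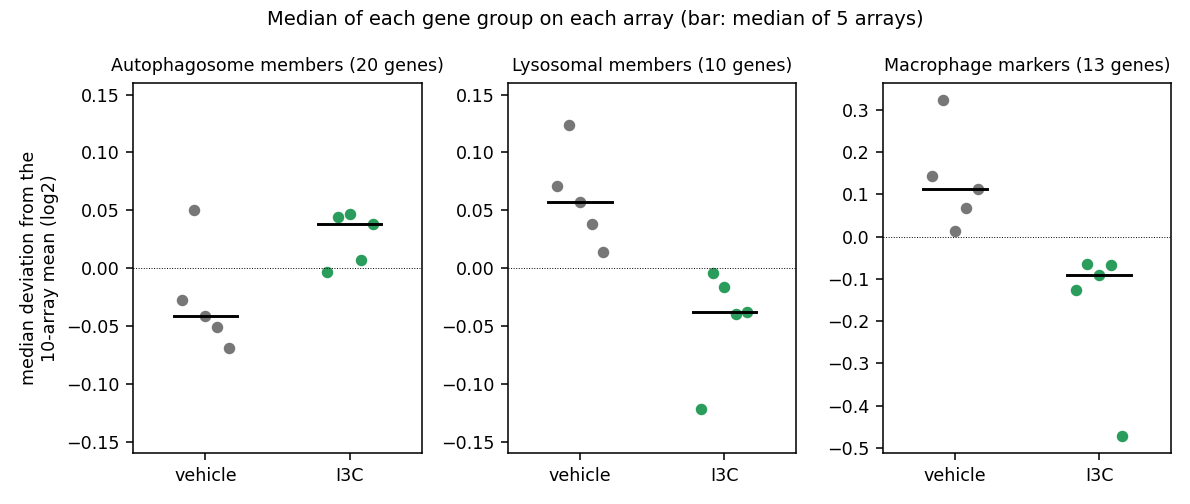
Points are single arrays, and the vertical axis is the median over the genes of a group of their log2 deviation from their own 10-array mean, with a bar at the median of the 5 arrays. The autophagosome genes overlap between the groups, whereas the lysosomal genes and the macrophage markers lie lower on all 5 I3C arrays, and the third panel has a wider scale than the first 2.

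RNA quality moved with the dose, so each difference was also fitted with the GAPDH 3' minus 5' difference as a covariate, under which 1.6% of all genes passed in either direction. Of the 31 genes 1 rose and 0 fell there (limma, with 4 higher and 4 lower by unadjusted p under 0.05). The gene that rose was Sqstm1, at 0.77 ± 0.15 (limma adjusted p = 0.039). Map1lc3b went from 0.66 to 0.34 ± 0.12 (limma adjusted p = 0.213), Gabarapl1 from 0.52 to 0.25 ± 0.16 (adjusted p = 0.492) and Ctsl from 0.45 to 0.30 ± 0.13 (adjusted p = 0.317). Ctsa went from -0.24 to -0.27 ± 0.10 and Ctsh from -0.26 to -0.19 ± 0.10, and neither passed (adjusted p = 0.231 and 0.403). The difference of Bnip3 went from 0.41 to 0.019 ± 0.139. Gla went from 0.0020 to -0.38 ± 0.12 and Lamp2 from -0.12 to -0.41 ± 0.12, both without passing (adjusted p = 0.182 and 0.13). Vehicle 5 had the highest GAPDH difference, 0.65 against 0.32 to 0.45 on the other vehicle arrays. It also had the lowest vehicle values of Bnip3, Gla, Lamp2, Map1lc3b and Ctsl, and the highest of Sqstm1. Without vehicle 5, and without the covariate, Bnip3, Gla and Lamp2 differed by 0.30, -0.099 and -0.21. In the same fit Map1lc3b, Gabarapl1, Sqstm1 and Ctsl kept their calls. The covariate was not fitted without vehicle 5. With the covariate on all 10 arrays the median became -0.015 on the autophagosome side and -0.20 on the lysosomal side. With the beta-actin covariate instead, 3 of the 31 genes rose and 0 fell. Those that rose were Map1lc3b, Sqstm1 and Ctsl (limma adjusted p = 0.0359, 0.0368 and 0.0409). The groups do not overlap in the GAPDH measure on these arrays, so that the parts of group and measure cannot be told apart fully.

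**Figure D4:**
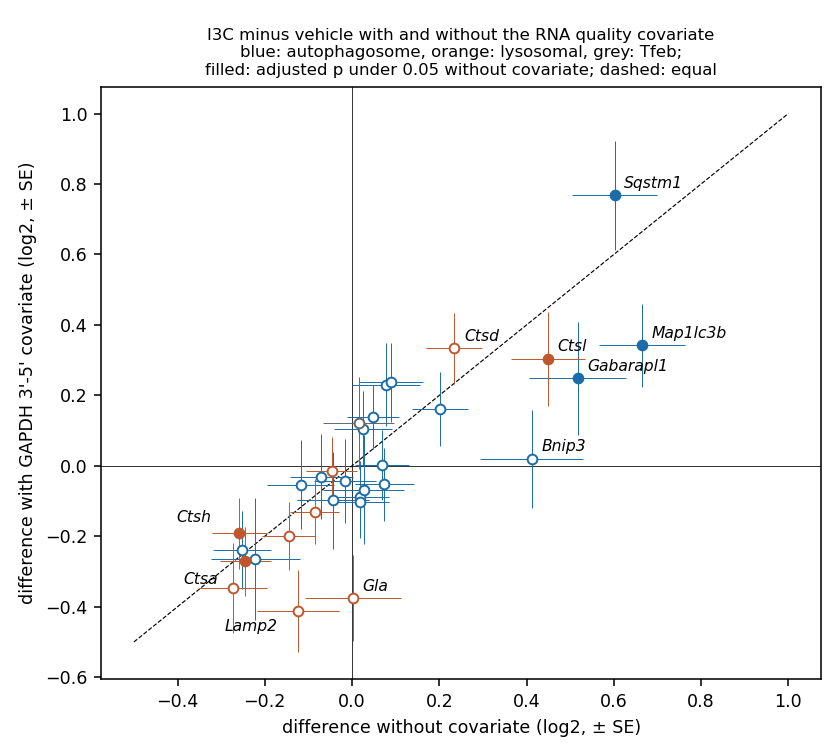
The horizontal axis is the I3C minus vehicle difference in log2 units and the vertical axis the same difference with the GAPDH 3' minus 5' covariate in the fit, with SE on both axes, for 31 genes. Sqstm1 and Ctsd lie above the dashed line of equality, Map1lc3b, Gabarapl1, Ctsl and Bnip3 lie below it, and Bnip3 falls to 0.019.

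Other genes of the same pathways were read from lists of their known members, also made with earlier results known. Of 30 other autophagosome genes 28 were measured, 2 rose and 0 fell, or 7.14% against 6.44% of all genes (5 higher and 1 lower by unadjusted p under 0.05), with a median difference of 0.083. Wdr45, a relative of the WIPI proteins, rose by 0.43 ± 0.07 (limma adjusted p = 0.0034), from 8.34 to 8.52 on the vehicle arrays to 8.78 to 9.02 on the I3C arrays. Tmem41b, a lipid scramblase needed for autophagosome formation, rose by 0.40 ± 0.10 (limma adjusted p = 0.0373), a call that ended without vehicle 1, vehicle 2, vehicle 4, I3C 2, I3C 3, I3C 4 or I3C 5 (adjusted p up to 0.0988). With the GAPDH covariate 0 of these genes passed (4 higher and 1 lower by unadjusted p under 0.05), with Wdr45 at 0.44 ± 0.12 and a median of 0.015.

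Of 37 other lysosomal hydrolases and activators 31 were measured, 2 rose and 0 fell, or 6.45%, the share of all genes being 6.44% (3 higher and 8 lower by unadjusted p under 0.05), and 23 of 31 were below 0, with a median of -0.071. Acp2, a lysosomal acid phosphatase, had a larger difference than any of the 31 autophagy and lysosome genes above. It lay at 10.03 to 10.40 on the vehicle arrays and at 10.87 to 11.08 on the I3C arrays, and rose by 0.83 ± 0.08 (limma adjusted p = 7.4e-05). Gaa, the lysosomal enzyme that breaks down glycogen, rose by 0.36 ± 0.08 (limma adjusted p = 0.0181), a call that ended without vehicle 1 or I3C 5 (adjusted p up to 0.0529). Both were still called with the GAPDH covariate, Acp2 at 0.99 ± 0.12 and Gaa at 0.54 ± 0.11. With the beta-actin covariate Acp2 lay at 0.74 ± 0.10 and was called, and Gaa lay at 0.28 ± 0.10 and was not (limma adjusted p = 0.00217 and 0.183).

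Of 24 other genes of the lysosomal membrane and of sorting to it 22 were measured, 2 rose and 0 fell, or 9.09% against 6.44% of all genes (4 higher and 1 lower by unadjusted p under 0.05). Scarb2, the membrane protein that carries glucocerebrosidase to the lysosome, rose by 0.33 ± 0.08, and Mcoln1, the calcium channel of the lysosomal membrane, by 0.34 ± 0.08 (limma adjusted p = 0.0316 and 0.0264). The call of Scarb2 ended without vehicle 1, vehicle 3, I3C 1, I3C 2, I3C 4 or I3C 5, and that of Mcoln1 without vehicle 1, vehicle 3, vehicle 4, I3C 1, I3C 2, I3C 4 or I3C 5, with adjusted p up to 0.0826. With the GAPDH covariate 0 of the 22 passed limma (4 higher and 0 lower by unadjusted p under 0.05), and their median went from 0.066 to -0.019. Of the 17 subunits of the vacuolar ATPase, the proton pump that makes the lysosome acidic, 0 passed limma, with 5 higher and 1 lower by unadjusted p under 0.05. Of these 14 were above 0, with a median of 0.088, and 1 rose with array weights. The median turned to -0.087 with the GAPDH covariate, and 0 passed limma (1 higher and 1 lower by unadjusted p under 0.05).

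Of 28 genes of mTORC1, AMPK and transcriptional control, which switch autophagy with nutrient and energy supply, 27 were measured, 1 rose and 1 fell, or 7.41% against 6.44% of all genes (6 higher and 5 lower by unadjusted p under 0.05). Ddit4, an inhibitor of mTORC1 that responds to stress, lay at 6.41 to 6.73 on the vehicle arrays and at 7.07 to 7.80 on the I3C arrays, and rose by 0.83 ± 0.12 (limma adjusted p = 0.00183). Foxo3, a transcription factor known to drive autophagy genes, fell by 0.45 ± 0.08 at its brightest probe set (limma adjusted p = 0.00375). With all probe sets of each gene averaged, 3 in Foxo3, 0 genes of the list fell. Without vehicle 5, 3 genes of the list rose and 2 fell, and the share of all genes called in that fit was not counted. With the covariate Ddit4 lay at 0.77 ± 0.21 and Foxo3 at -0.26 ± 0.11, neither called (adjusted p = 0.116 and 0.278).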

How the data were processed

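Liver RNA of 10 rats was hybridised to rat whole-genome 3' expression arrays. The authors deposited log2 values made with RMA, per the submitters' processing notes, whose version is not given in the sources used here. Such normalization pulls array distributions together, removes shifts common to all genes and compresses large folds. Values ran from 3.00 to 15.12, and array medians from 6.21 to 6.29. Of 31099 probe sets 57 were controls, and 31042 were tested. The platform annotation of 2016 gave 1 gene for 20826, several for 436 and none for 9780.

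The test was limma 3.58.1, run under R 4.3.3 with lmFit and eBayes (prior degrees of freedom 4.6), two-sided, adjusted by Benjamini-Hochberg over all 31042 probe sets. Exact permutation served for 1 value per array. No set test was run. The members and lists were chosen with earlier results of these data known. The text names all members, up to 4 called genes of each pathway list and up to 3 of the macrophage list, which is 1 more than the rule allowed, since a count of 3 is named in full. Alternatives changed the variance model, scaling, filter, weights, probe set, block, covariates and arrays left out. The unequal-change tests and the count with Gabarapl2 and Nbr1 were added later. The lymphocyte, neutrophil, endothelial, stellate and cholangiocyte lists gave 1 rose and 1 fell of 11, 0 of 5, 0 of 7, 1 and 1 of 10, and 0 of 6 (limma, with 1 and 2, 0 and 0, 0 and 2, 1 and 3, and 0 and 0 up and down by unadjusted p under 0.05), and the hepatocyte list 1 rose of 9.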

Additional observations from a re-analysis of the deposited data

Results flagged for a closer look

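In 62 groups of 5 arrays, 2 for each of the 31 genes, 6 had a highest or lowest array whose gap to the nearest exceeded 0.71 of the range, where chance gives about 1 in 20. All 6 are I3C groups of genes that did not pass. Ulk2 was 8.91 on I3C 3 against 8.56 to 8.65 on the others. On I3C 2, Atg13 was 10.01 against 9.82 to 9.85, Atg5 was 9.05 against 8.93 to 8.95, and Lamp1 was 11.21 against 11.02 to 11.07. Lamp2 was 12.48 on I3C 1 against 12.69 to 12.72, and Tfeb was 7.98 on I3C 4 against 7.68 to 7.76.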

How the results depend on the processing

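The 4 rises kept their direction under all 19 alternatives run for each, and Sqstm1 also kept its call in all 19, with differences from 0.41 to 0.77. Map1lc3b and Ctsl kept theirs in 18, the exception being the GAPDH covariate, and Gabarapl1 in 17, the beta-actin covariate also ending it (0.47, limma adjusted p = 0.137). Ctsa and Ctsh kept theirs in 8 of 19 each. With the GAPDH covariate 1 gene rose, 1 on the autophagosome side and 0 on the lysosomal side, and 0 fell. The count of 2 that fell, both lysosomal, was 0 with the beta-actin covariate, with the replicate block, with median centring and at an adjusted p under 0.01. It was 4 with quantile normalization again and with array weights. On the autophagosome side 1 gene, Optn, fell with the filter on dim probe sets, with quantile normalization again and with array weights. On the lysosomal side 2 rose, Ctsd with Ctsl, with the dim filter, median centring, array weights and averaged probe sets. With 1 array left out, 4 to 5 genes rose in all and 0 to 4 fell, 3 to 4 rose and 0 to 1 fell on the autophagosome side, and 1 to 2 rose and 0 to 3 fell on the lysosomal side. Among the alternatives, calls over all genes were counted only for the GAPDH covariate (1.6%). The same replicate numbers do not pair the arrays, since the correlations of same-numbered deviations ran from -0.28 to 0.22. With the replicate number as a block 4 genes rose and 0 fell. Quantile normalization and median centring moved the median of all genes by 0.0066 and 0.0125. Over the alternatives, 547 values of single genes kept their side of the threshold, 26 lost and 16 gained a call, and none changed sign while called. Of the ratios 151 values kept theirs, 7 lost and 2 gained it.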
